A study of Mus musculus with 11 samples.

Results

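The genes described here are 46 members of the DNA replication and S phase machinery, the proteins that copy the genome once per cell cycle. The members were chosen by symbol from a written list, and all 46 were found among the 20475 genes of each of 2 tables of normalized read counts. Genes averaging fewer than 10 normalized counts within a table were not tested, and all 46 members passed this filter in both tables. The tables come from a study of Kif20a, a mitotic kinesin of the cytokinetic bridge, in the mouse embryonic cortex. Poly(A) RNA of cortical cells at E12.5 was sequenced (the sample labels call the tissue forebrain and the cell type neural cell). The germline table holds 3 wild-type libraries and 3 libraries of littermates homozygous for a knockout-first allele, in which a LacZ and neomycin cassette interrupts Kif20a. The inducible table holds 2 libraries labelled as wild-type controls of the conditional knockout and 3 labelled as conditional knockouts. The pregnant mice received tamoxifen at E9.5 and E10.5, so controls and knockouts, described as littermates, share the drug. In the other inducible experiments of the study the knockouts were Nestin-CreERT2, Kif20a fl/fl and the controls Kif20a fl/fl without the recombinase. The control genotype is not spelled out for these libraries. If it was the same, the groups share the floxed allele and differ in the recombinase. The Nestin promoter drives the recombinase in neural progenitors. The totals of normalized counts ran from 13048716 to 15551274 in the germline and from 24118520 to 24497307 in the inducible libraries, but after normalization a total no longer gives the depth. Each table was normalized alone, so tests were run within a table and levels are not set against each other across tables.

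Replication starts in G1, when the origin recognition complex, Cdc6 and Cdt1 load the MCM helicase onto origins, a step called licensing, and geminin (Gmnn) later blocks Cdt1 so that no origin is licensed again. Cyclin E, made from Ccne1 and Ccne2, activates Cdk2 at the entry into S phase, and the E2F factors drive transcription of many of these genes at that boundary. Cdc45 and the GINS proteins then complete the active helicase, DNA polymerases alpha, delta and epsilon copy the strands around the sliding clamp PCNA, and ribonucleotide reductase and thymidylate synthase supply the nucleotides. In the embryonic cortex this machinery is used by the cycling progenitors of the ventricular zone, while newborn neurons leave the cycle and lose it. In bulk RNA, fewer cells in S phase and less RNA of a gene per cell cannot be told apart.

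Kif20a itself followed the labels. In germline libraries it had 2456, 2295 and 2680.2 normalized counts without and 409, 374 and 503 with the mutation, so its log2 fold change was -2.54 with a standard error of 0.15 (adjusted p = 0.00845, by limma, adjusted after Benjamini and Hochberg over all genes). In inducible libraries it had 4760.2 and 4844 in the controls and 3125, 2915 and 2853 in the knockouts, so its log2 fold change was -0.70 with a standard error of 0.057 (adjusted p = 0.0107, same limma test). The knockout libraries were lower than all wild-type libraries in both tables. The knockout mean was 17.3% of the wild-type mean in the germline and 61.7% in the inducible table.

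The germline knockout libraries differed from each other more than the wild-type libraries did, and knockout replicate 2 stood apart. Its mean correlation with the other 5 libraries, over log2 values of the 13938 genes tested, was 0.925, against 0.947 to 0.967 for the others. The 12 neuron genes summed to 112284 normalized counts there, against 62448, 63346 and 52384 in wild-type libraries and 27333 and 34415 in knockout replicates 1 and 3, and Map2, the most abundant on the mean over all libraries, had 22922 against 12944 to 14320.3 in the wild type. Dcx was higher than Map2 in replicate 2, at 26719, against 11916 to 12956 in the wild type. The 8 cranial mesenchyme genes summed to 572 in replicate 2, against 4793 to 8731 in the wild type, 21353 in replicate 1 and 10618 in replicate 3. Col3a1, their most abundant gene on the mean over all libraries, had 2.46 normalized counts in replicate 2 and 8253 in replicate 1, while 0 of the 8 genes were listed at 0. Other cell types differed too. The 7 microglia genes summed to 29.1 in replicate 2 and to between 410.3 and 713 in the wild type, with Csf1r at 6.96. Erythroid genes, with Hbb-y the most abundant, summed to 9370.5 in replicate 2 against 30787 to 66935 in the other 5 libraries, and endothelial genes, with Kdr the most abundant, to 702 against 1215 to 2901. The 7 diencephalon genes were high in replicate 1 alone, at 7103 against 1611 to 3145 in the others, with Tcf7l2 at 3212 against 283 to 638. The 18 hypoxia and glycolysis genes summed to 96255 and 139447 in replicates 1 and 2, but to 37540.3 in replicate 3 and 31629 to 33324 in the wild type, with Ldha and Eno1 among the most abundant. The 4 Y-linked genes summed to 1714, 9.83 and 4582 in wild-type and to 4.49, 0 and 1376 in knockout libraries, so both groups mix libraries with and without Y-linked RNA. What part these differences have in the values of the replication genes was not tested. Log2 fold changes without replicate 2 are therefore given for the whole list and within each subgroup.

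The inducible libraries had mean correlations between 0.989 and 0.992, but they too differed in composition. Their neuron genes summed to 84704 and 71311 in the controls and 76071, 77980.0 and 89688 in the knockouts, and their 10 radial glial genes to 82534 and 86457 against 87085, 82997 and 83222. The 9 ventral telencephalon genes, with Dlx1 the most abundant, summed to 11370.5 and 5645 in the controls and to 6449, 7844 and 14523 in the knockouts, and Nkx2-1 among them had 1902 and 79.0 against 372, 653 and 1911. Cranial mesenchyme genes, with Col3a1 the most abundant, summed to 19091 and 11870.1 against 14098, 16397 and 16601. The 2 controls thus lie far apart in the ventral telencephalon and mesenchyme lists, and closer in the radial glial sums. Gene by gene the radial glial list differed too, with medians of -0.08 and 0.08 on the log2 scale against the control mean. In control replicate 1, 8 of its 10 genes lay below that mean. The Y-linked genes summed to 1.96 and 4.24 in the 2 controls and to 3209, 2389 and 3101 in the 3 knockouts. Genotype and Y-linked expression therefore cannot be told apart in the inducible table. Pola1, the catalytic subunit of DNA polymerase alpha, is the 1 member on the X chromosome.

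**Figure D1:**
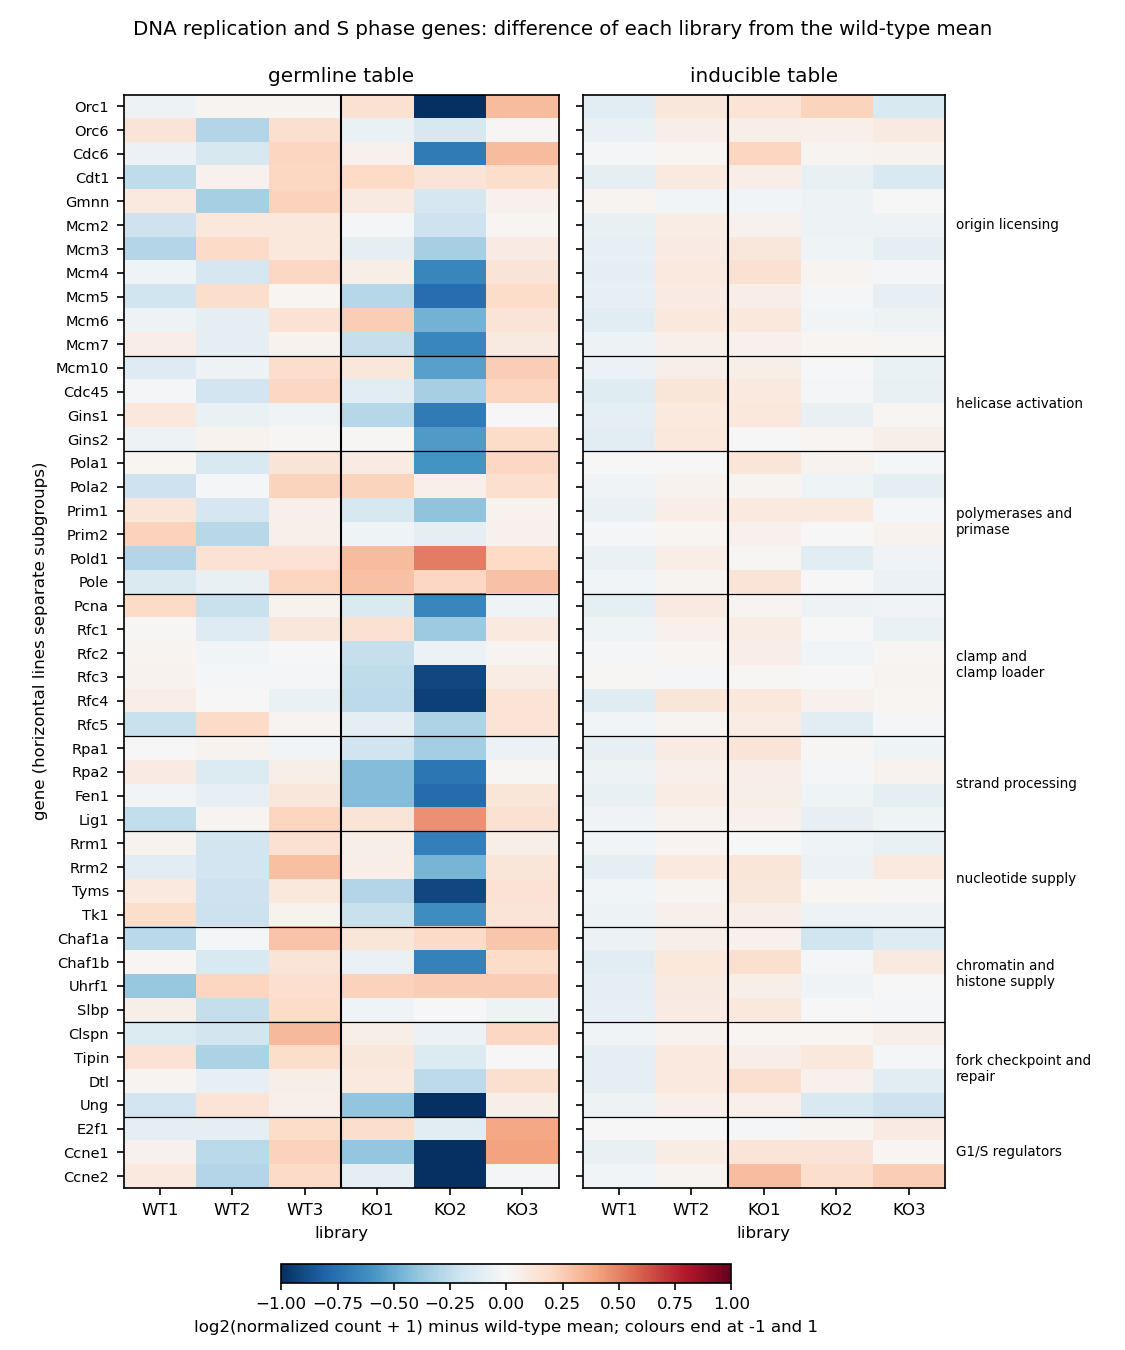
Genes are stacked by subgroup and each column is a library, coloured by log2(normalized count + 1) minus the mean of the wild-type libraries of the same table, with a vertical line between genotypes. In the germline table knockout replicate 2 is below the wild-type mean for 39 of the 46 genes, while the inducible columns stay close to 0.

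In the germline comparison, 37 of the 46 members were lower and 9 higher in the knockouts, with a median log2 fold change of -0.10, against a median of -0.04 and 6128 of 13938 genes higher over all genes tested. The difference lay mostly in 1 library. Knockout replicate 2 was below the wild-type mean for 39 members, replicate 1 for 24 and replicate 3 for 6. Replicate 2 was the lowest of the 6 libraries for 32 members, or 69.6%, where it was the lowest for 30.5% of all genes. Replicate 3 was the highest library for 16 members, or 34.8%, where it was the highest for 8.42% of all genes. Against the wild-type mean, the median of the 46 members was -0.03, -0.43 and 0.13 on the log2 scale in knockout replicates 1, 2 and 3, and it was -0.01, -0.09 and 0.13 in the 3 wild-type libraries. Together the members made up 0.492%, 0.467% and 0.541% of all normalized counts in wild-type libraries, and 0.512%, 0.342% and 0.566% in knockout libraries.

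Not 1 of the 46 passed, in the germline comparison, a fold change of 1.5 together with an unadjusted P of 0.05 from limma, rules that 0.667% of all genes passed as lower and 2.07% as higher. At that P alone 0 members were called as well, where 2.45% of all genes were lower and 2.93% higher. An adjusted p under 0.05 was reached by 0 members and by 0.00717% of all genes. The smallest unadjusted P among the members was 0.0827, for Pold1. The 3 knockout libraries lay below all wild-type libraries for 1 member, Rpa1, as they did for 7.55% of all genes, and above them for 2, Pold1 and Uhrf1, as they did for 5.90%. These shares do not set the members apart from the other genes. The precision was low, since the spread among the 3 knockouts enters each test. The 95% interval of the fold change stayed within 1.5-fold in either direction for 22 members, and over all members the limits ran from 0.302 to 1.67 times the wild-type level.

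Without knockout replicate 2, 28 members were higher and 18 lower, the median was 0.06, and the log2 fold changes ran from -0.21 (Rpa2) to 0.29 (Pole), and 0 members passed an unadjusted P of 0.05. In that fit 14.4% of all genes passed this P and 8.77% the fold and P rules, more than with all libraries. Without knockout replicate 3, in contrast, the median was -0.22 and 10 members had an unadjusted P of at most 0.05, all lower, namely Mcm5, Mcm7, Gins1, Rfc3, Rfc4, Rpa2, Fen1, Tyms, Ung and Ccne1. That is 21.7% of the members, and 11.1% of all genes passed the same P in that fit, in either direction. Of the 10, 6 also passed the 1.5-fold rule, where 403 of 13916 genes did as lower and 617 as higher, and none had an adjusted p under 0.05. The direction of the list in the germline knockouts thus depended on which knockout libraries were kept.

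The members differed little in the inducible comparison. There were 29 higher and 17 lower members, with a median log2 fold change of 0.02 beside -0.002 over all 14081 genes tested, of which 6933 were higher. For 44 of the 46 members the log2 fold change was smaller than 0.10 in size, and for 32 the mean of the knockouts lay between the 2 controls. That held for 41.6% of all genes. None passed the fold change of 1.5 with an unadjusted P of 0.05 (limma), which 0.490% of all genes passed as lower and 0.802% as higher, and none reached an adjusted p under 0.05, which 0.0355% of all genes did. At the unadjusted P alone, 1 member was higher, Ccne2, and 0 were lower, where 2.98% of all genes were higher and 3.03% lower. The groups did not overlap for 2 higher members, Ccne2 and Cdc6, beside 10.4% of all genes, and for 0 lower members, beside 12.2%. All 46 intervals of 95% stayed within 1.5-fold, from 0.805 to 1.32 times the control level, so a change of 1.5-fold in the whole tissue lies outside the interval of each member.

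The spread within the inducible table was itself ordered by library. Control replicate 1 had less RNA than control replicate 2 for 43 of the 46 members, by a median of 0.13 on the log2 scale, and it was the lowest of the 5 libraries for 24, where it was the lowest for 18.9% of all genes. Knockout replicate 1 was the highest library for 23 members, where it was the highest for 22.7% of all genes. Against the control mean, the median of the members was -0.06 and 0.06 in the controls and 0.07, -0.01 and -0.02 in the knockouts. Without control replicate 1 the median log2 fold change was -0.05 with 37 members lower, and without control replicate 2 it was 0.07 with 41 members higher. The shift between genotypes is taken between group means and that between the controls between single libraries, so their sizes are unlike measures. Between single libraries, the median of knockout minus control ran from -0.10 (knockout replicate 3, control replicate 2) to 0.13 (knockout replicate 1, control replicate 1). Control replicate 1, low for the members, was the control with more ventral telencephalon and mesenchyme RNA. Knockout replicate 1, high for the members, had the least ventral telencephalon RNA of the knockouts. Knockout replicate 3 had the most ventral telencephalon RNA of the 5 libraries, 14523 against 11370.5 in control replicate 1. Its member median, -0.02, was nevertheless above that control's -0.06. Radial glial genes had medians of -0.08 and 0.08 in the controls and 0.01, -0.04 and -0.10 in the knockouts. The G2/M genes resembled the members in part, with medians of -0.05 and 0.05 in the controls and 0.08, -0.01 and -0.06 in the knockouts, and so did the other replication genes, with -0.05 and 0.05 against 0.11, 0.01 and -0.06. In both lists knockout replicate 3, not control replicate 1, had the lowest median. Hypoxia and glycolysis genes had sums of 72959 and 93966.5 in the controls and 71668, 69184 and 84739.6 in the knockouts. The part of these differences in the order was not tested.

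**Figure D2:**
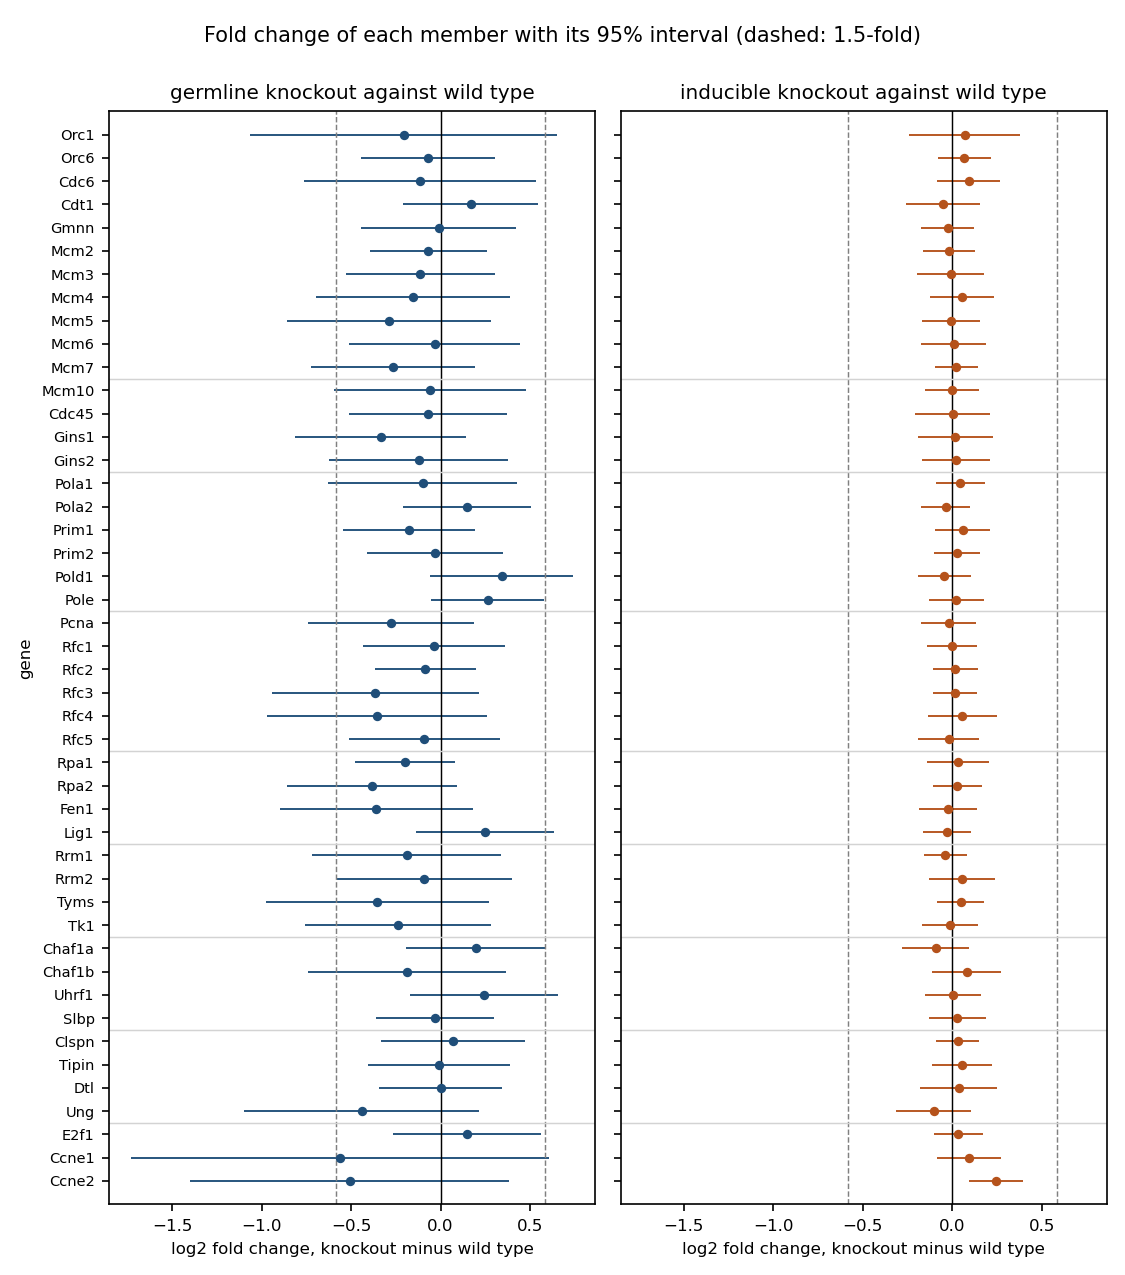
Points are log2 fold changes, knockout minus wild type, of each member from limma on log2(normalized count + 1), and lines are 95% intervals, with dashed lines at 1.5-fold. Germline intervals (6 libraries) are wide, with a median standard error of 0.19, and inducible intervals (5 libraries) are narrow, with 0.067; only Ccne2 in the inducible table has an interval that leaves out 0.

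The 11 licensing genes include the 6 subunits of the MCM helicase, which work as a ring with 1 copy of each. Their levels per length were close to each other. In normalized counts per kb of exon, the germline wild-type means ran from 629.9 ± 82.0 for Mcm5 to 798 ± 72.4 for Mcm6 (SD, n = 3), a ratio of 1.27 between the highest and the lowest subunit, and neighbours in this order differed by less than their spread. In the inducible controls the range was 1662 for Mcm7 to 2324 for Mcm3, a ratio of 1.40. For comparison, the 5 replication factor C subunits, which also form 1 complex and load the clamp, ranged from 115 (Rfc5) to 797 (Rfc2) normalized counts per kb in the germline wild type, a ratio of 6.95, and the 4 subunits of polymerase alpha and primase from 168 (Pola1) to 368 (Prim2), a ratio of 2.19. In the inducible controls these ratios were 6.60 and 2.64. Exon length here is the union of all annotated exons, so a gene with long unused exons reads too low on this scale. For Rfc5 and Rfc2 this length was 4669 and 1518 bases, and the germline wild-type means were 535 and 1210 normalized counts. The ratio of 6.95 thus rests on the annotated lengths as well as on the counts.

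Mcm2 had 2199, 2737 and 2727 normalized counts in germline wild-type libraries against 2505, 2198 and 2581 in knockouts, and 7335 and 8109 against 7962, 7439.8 and 7457 in the inducible table. Mcm3 had 1668, 2337 and 2203 against 1924, 1623 and 2172, and 6539.6 and 7362 against 7508, 6750.1 and 6474. Mcm4 had 2471, 2261 and 2939 against 2652, 1612 and 2786, and 5849.9 and 6702 against 6957, 6375 and 6197. In each of these 3 genes replicate 2 was the lowest germline knockout, and the inducible groups overlapped. Mcm5 had 1908, 2481 and 2220.3 normalized counts in germline wild-type libraries against 1799, 1294 and 2482 in knockouts, and 6128 and 6842 against 6788.9, 6439.99 and 6119 in the inducible table. Mcm6 had 3346, 3257 and 3843 against 4111, 2507 and 3791, and 7578 and 8746 against 8752, 7997 and 7842. Mcm7 had 3264, 2906 and 3188 against 2649, 1985 and 3321, and 7092 and 7623 against 7556, 7457 and 7416. Thus germline knockout replicate 2 held 59.1% (Mcm5) to 86.5% (Mcm2) of the wild-type geometric mean across the 6 subunits, while replicate 3 held 102% (Mcm2) to 113% (Mcm5). The log2 fold changes were -0.29 to -0.03 in the germline and -0.02 to 0.05 in the inducible table, all with groups that overlap. Without germline replicate 2 they ran from -0.07 (Mcm7) to 0.18 (Mcm6).

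The other licensing genes did not move as a block. Cdc6, the loader of the helicase, had 486, 452 and 588 normalized counts in germline wild-type libraries against 521, 309 and 631 in knockouts (log2 fold change -0.11), and 1235 and 1265 against 1451, 1270.2 and 1282 in the inducible table (0.09, standard error 0.075). The inducible knockouts all lay above the controls, but replicates 2 and 3 by little. Cdt1, its partner, had 391, 483 and 541 in germline wild-type libraries against 536, 511 and 528 in knockouts, and 1557 and 1787 against 1751, 1586 and 1502 in the inducible table. In the germline table each knockout library exceeded the wild-type mean of Cdt1, yet it overlapped with the wild type. Geminin RNA (Gmnn) had 597, 442.5 and 654 against 592, 496 and 574, and 904 and 872 against 869, 857 and 889. Its log2 fold change was -0.01 and -0.03 in the 2 tables. The remaining licensing genes, Orc1 and Orc6, had log2 fold changes of -0.21 and -0.07 in the germline and 0.07 and 0.07 in the inducible table. Orc1, the member with the lowest level per kb in both tables (56.0 and 98.1), had only 123 normalized counts in germline knockout replicate 2 against 252 to 267 in the wild type. Without that library the log2 fold changes of Orc1, Cdc6, Cdt1 and Gmnn were 0.23, 0.18, 0.19 and 0.07, and that of Orc6 was -0.03.

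The promoters of the members were also examined for the E2F word, which the rule for choosing members did not use. Windows of 300 bases, from 250 before to 50 after the annotated start, came from RefSeq (build GRCm38.p6) and matched 37 of the 46 members by symbol. Gmnn, Mcm4, Gins1, Gins2, Prim2, Pole, Rfc2, Tipin and Ccne2 had no matched window and were not searched. The words TTTCCCGC, TTTCGCGC, TTTGCCGC and TTTGGCGC were searched on both strands, and a match on 1 strand may overlap one on the other. At least 1 word was found for 14 of the 37 members (37.8%), and for 17 of 46 other replication genes (37.0%), 1 of 17 G2/M genes (5.88%) and 704 of all 27025 symbols. By subgroup, 7 of 9 licensing, 2 of 3 fork checkpoint and repair, and 2 of 4 polymerase and primase genes held a word. So did 1 of 4 strand processing, 1 of 4 chromatin and 1 of 5 clamp and clamp loader genes. The count was 0 of 4 for nucleotide supply, 0 of 2 for helicase activation and 0 of 2 for G1/S regulators. Of the MCM helicase subunits, Mcm2 had a window without a word and Mcm4 was not searched. The windows of the 4 MCM genes with a word are shown with the words in capitals, each read 5′ to 3′ on the strand of the gene. Mcm3 lies at chr1:20820263-20820562 (minus strand), Mcm5 at chr8:75109259-75109558 (plus strand), Mcm6 at chr1:128359656-128359955 (minus strand) and Mcm7 at chr5:138171834-138172133 (minus strand, 1 of 2 annotated starts of this gene). In Mcm5 and in the first match of Mcm6, words of both strands overlap.
Mcm3: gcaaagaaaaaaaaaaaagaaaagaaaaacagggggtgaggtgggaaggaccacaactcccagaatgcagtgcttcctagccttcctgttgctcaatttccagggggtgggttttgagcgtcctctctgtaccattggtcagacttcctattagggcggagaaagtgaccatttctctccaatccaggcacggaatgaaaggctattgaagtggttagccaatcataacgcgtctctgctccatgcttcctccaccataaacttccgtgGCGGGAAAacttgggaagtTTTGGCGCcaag
Mcm5: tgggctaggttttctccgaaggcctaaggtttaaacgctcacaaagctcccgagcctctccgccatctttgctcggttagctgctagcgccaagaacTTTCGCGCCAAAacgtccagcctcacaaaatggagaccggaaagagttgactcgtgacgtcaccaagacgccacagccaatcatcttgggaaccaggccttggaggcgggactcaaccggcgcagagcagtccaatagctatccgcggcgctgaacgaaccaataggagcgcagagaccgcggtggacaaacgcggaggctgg
Mcm6: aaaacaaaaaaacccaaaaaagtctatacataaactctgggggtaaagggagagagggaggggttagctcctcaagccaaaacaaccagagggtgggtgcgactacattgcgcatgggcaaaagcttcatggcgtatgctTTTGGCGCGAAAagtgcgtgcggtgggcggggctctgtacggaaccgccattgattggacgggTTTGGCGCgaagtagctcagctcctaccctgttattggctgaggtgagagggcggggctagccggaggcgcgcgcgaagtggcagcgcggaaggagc
Mcm7: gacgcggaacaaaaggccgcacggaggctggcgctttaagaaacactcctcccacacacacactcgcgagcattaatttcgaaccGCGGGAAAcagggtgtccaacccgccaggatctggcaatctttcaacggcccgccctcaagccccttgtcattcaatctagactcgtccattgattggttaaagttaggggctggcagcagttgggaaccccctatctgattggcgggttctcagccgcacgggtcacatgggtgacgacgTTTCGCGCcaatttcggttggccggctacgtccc
Mcm3 carries its 2 words downstream of the start, Mcm5 carries 2 and Mcm6 3 upstream of it, and Mcm7 has 1 on each side. In germline knockout replicate 2 the members with a word had a median of -0.40 against the wild-type mean. The 23 members without one were at -0.46, so that library was low for both. In knockout replicate 1 the medians were 0.09 with a word and -0.10 without, and in replicate 3 they were 0.18 and 0.12. The median germline log2 fold changes were -0.07 with a word and -0.18 without. Whether the words have a part in these values was not tested. A match is a description of letters and does not show that a factor binds. Only exact words were searched, so a window without a match may still be bound.

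The 4 helicase activation genes, Mcm10, Cdc45, Gins1 and Gins2, were all lower in the germline knockouts, with log2 fold changes from -0.33 (Gins1) to -0.06 (Mcm10), and all were within 0.03 of 0 in the inducible table. Their median in germline knockout replicate 2 was -0.56 against the wild-type mean and 0.20 in replicate 3. The lower values depended on replicate 2, since without it Mcm10, Cdc45 and Gins2 were higher in the knockouts (0.18, 0.06 and 0.10) and Gins1 was at -0.15. The 6 clamp and clamp loader genes were also all lower in the germline knockouts, with a median of -0.51 in replicate 2. Pcna, the sliding clamp, had 5737, 4316 and 5159.9 normalized counts in germline wild-type libraries against 4560.5, 3201 and 4897 in knockouts (log2 fold change -0.28, standard error 0.20). The lowest wild-type library lay below 2 of the knockouts, so the groups overlap. In the inducible table Pcna had 8009.7 and 9083 in the controls and 8688, 8239 and 8331 in the knockouts (-0.02, standard error 0.066). It was the most abundant member per kb in both tables, at 2113 and 3561 normalized counts per kb, ahead of Rrm1 and Rrm2. Rfc3 and Rfc4 had the largest germline differences among the loader subunits, at -0.37 and -0.35. They held 53.1% and 52.3% of the wild-type geometric mean in replicate 2, 83.7% and 83.4% in replicate 1, and 105% and 109.8% in replicate 3. Without replicate 2, Rfc1 and Rfc5 were higher in the knockouts (0.13 and 0.02), and Pcna, Rfc2, Rfc3 and Rfc4 were at -0.09, -0.10, -0.09 and -0.06.

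The 6 polymerase and primase genes were split. In the germline comparison, 3 were higher and 3 lower, with a median of 0.06, and in replicate 2 Pola1, Prim1 and Prim2 were at -0.60, -0.40 and -0.10 against the wild-type mean, while Pola2, Pole and Pold1 were at 0.05, 0.21 and 0.51. Pold1, the catalytic subunit of polymerase delta on the lagging strand, had 676, 916 and 917 normalized counts in germline wild-type libraries against 1034, 1179.9 and 948 in knockouts. Each knockout library was above each wild-type library, with replicate 2 the highest (log2 fold change 0.34, standard error 0.17, adjusted p = 0.779). In the inducible table Pold1 had 2495 and 2725 against 2635, 2418 and 2543 (-0.04). Pole, the catalytic subunit of polymerase epsilon on the leading strand, had 1281, 1345 and 1644 in germline wild-type libraries against 1729.5, 1637 and 1729 in knockouts (0.26, standard error 0.13), and 4162 and 4319 against 4639, 4239.7 and 4073 in the inducible table (0.02). Replicate 2 was just below the highest wild-type library, so Pole overlapped. Pola1 and the 2 primase genes had germline log2 fold changes of -0.18 to -0.03, Pola2 one of 0.15, and all 4 lay between -0.04 and 0.06 in the inducible table. Without replicate 2, Pold1 and Pole were at 0.26 and 0.29, Pola1, Pola2 and Prim2 at 0.15, 0.20 and 0.002, and Prim1 at -0.06.

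Strand processing and chromatin genes were split as well. Lig1, which seals Okazaki fragments, had 1555, 1883 and 2139 normalized counts in germline wild-type libraries against 2018, 2536 and 2049 in knockouts (log2 fold change 0.25, standard error 0.16), and 5422 and 5706 against 5730.3, 5247 and 5394 in the inducible table (-0.03). It was higher in replicate 2 than in any other library. Fen1, which trims the flaps that Lig1 then joins, and Rpa2 and Rpa1, which coat single strands, had germline log2 fold changes of -0.36, -0.38 and -0.20. Rpa1 had 1915, 1975 and 1885 in wild-type and 1675, 1524 and 1847 in knockout libraries, the 1 member with all knockouts below all wild-type libraries. Replicate 2 thus held 138% of the wild-type geometric mean of Lig1 but 58.7% of that of Fen1, although both act on the same fragments. Among the chromatin genes, Uhrf1, which recruits the maintenance methyltransferase to new DNA, had 2281, 3455 and 3336 in germline wild-type libraries against 3490.3, 3531 and 3523 in knockouts (0.24, standard error 0.18), and 7874 and 8957 against 8725, 8207 and 8364 in the inducible table (0.01). The 3 germline knockouts were nearly equal and just above the wild type, whose replicate 1 was low. Chaf1a and Chaf1b, subunits of 1 histone chaperone, differed in sign, at 0.20 and -0.19. Chaf1a had 896, 1074 and 1319.7 against 1179, 1236 and 1312 in the germline table, and 3229 and 3495 against 3469, 2930.2 and 3078 in the inducible table (-0.09, standard error 0.080), where it was among the 3 lowest members. Without germline replicate 2, Lig1 was at 0.14, Rpa1, Rpa2 and Fen1 were at -0.13, -0.21 and -0.16, and Uhrf1, Chaf1a, Chaf1b and Slbp were at 0.24, 0.20, 0.06 and -0.05.

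The 4 nucleotide supply genes were all lower in the germline knockouts, with a median of -0.21, and their summed counts of 11978, 10468 and 13666 in the wild type stood beside 12059.5, 7754 and 12735 in the knockouts. Rrm1, the large subunit of ribonucleotide reductase, had 6175, 5313 and 6711 normalized counts in wild-type libraries against 6274, 3765 and 6281 in knockouts (log2 fold change -0.19). Rrm2, the small subunit whose protein is made in S phase, had 3724, 3504 and 4937 against 4205, 2908 and 4354 (-0.09). Both were low in replicate 2 and within the wild-type range in the others, and without replicate 2 both were higher in the knockouts (0.06 and 0.09). Tyms, thymidylate synthase, had 1415, 1145 and 1417 in wild-type libraries against 1077, 702 and 1456 in knockouts (-0.35). Tk1, the thymidine kinase of the salvage route, had 664, 505 and 601 against 503, 380.1 and 643 (-0.24). For these last genes replicates 1 and 2 were below all wild-type libraries and replicate 3 was not. Without replicate 2 their differences were -0.08 and -0.04, so the lower level of the subgroup depended on that library. Among inducible libraries Rrm1 had 12201 and 12627 in the controls and 12441, 12063 and 11777 in the knockouts, and Rrm2 had 8331 and 9523 against 9698, 8567 and 9543. Tyms had 2268 and 2351 against 2498, 2338 and 2327, and Tk1 had 1247 and 1333 against 1347, 1243 and 1244. The 4 log2 fold changes lay between -0.04 and 0.06, with groups that overlap.

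Of the 4 fork checkpoint and repair genes, Ung, the uracil glycosylase that removes misplaced uracil from new DNA, was the lowest in both tables. It had 319, 402 and 378 normalized counts in germline wild-type libraries against 278, 183 and 381 in knockouts (log2 fold change -0.44, standard error 0.28), and 1171 and 1258 against 1258.99, 1090.2 and 1051 in the inducible table (-0.10, standard error 0.089). Germline replicate 3 lay within the wild-type range and inducible replicate 1 just above it, so neither comparison separated the groups. Clspn, Tipin and Dtl were between -0.01 and 0.07 in the germline and between 0.03 and 0.05 in the inducible table. Without germline replicate 2, Ung was at -0.17, and Clspn, Tipin and Dtl were at 0.13, 0.06 and 0.13.

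**Figure D3:**
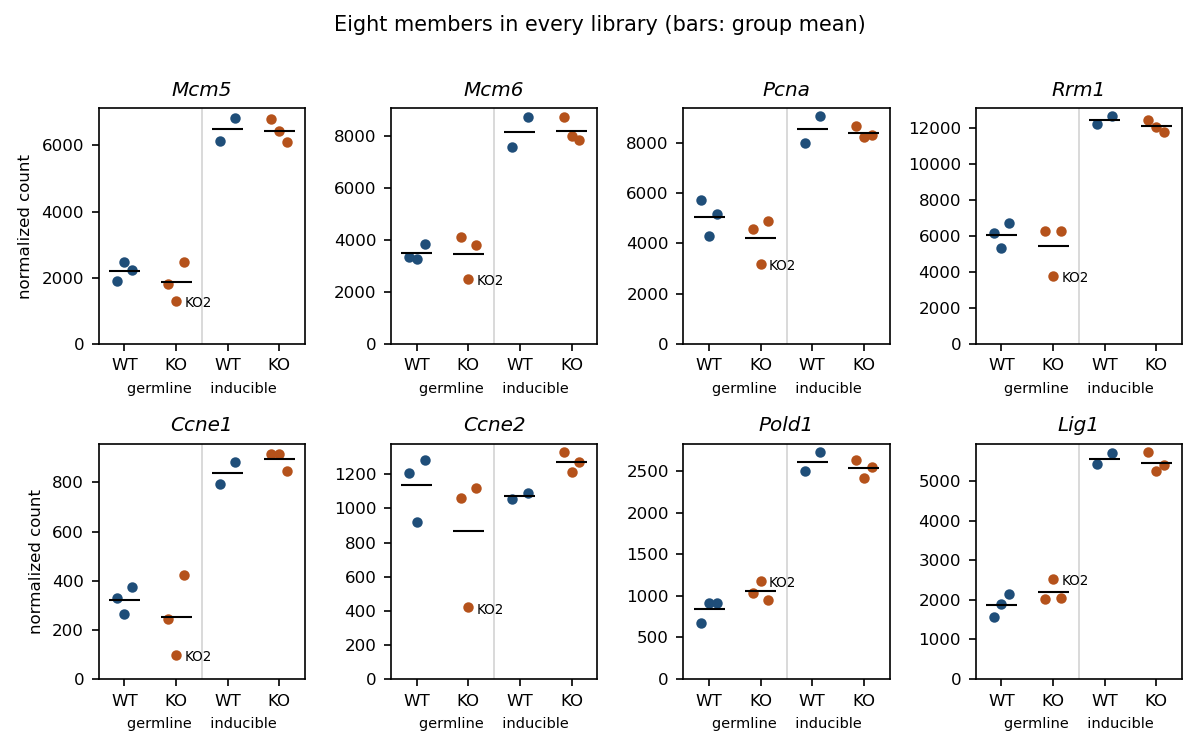
Normalized counts of 8 members in every library, blue for wild type and orange for knockout, with a bar at each group mean; the germline and inducible tables were normalized alone, so heights compare only within a table. Replicate 2 is the lowest germline knockout for Mcm5, Mcm6, Pcna, Rrm1, Ccne1 and Ccne2 and the highest for Pold1 and Lig1.

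The G1/S regulators held the largest differences of either table. Ccne1, which encodes cyclin E1, had 328, 265 and 374 normalized counts in germline wild-type libraries against 244, 97.5 and 422 in knockouts, so the knockouts included both the lowest and the highest library. Its log2 fold change was -0.56 with a standard error of 0.50 and an interval of 0.302 to 1.52 times the wild-type level. Without replicate 2 it was 0.01, and without replicate 3 it was -1.04. Among inducible libraries Ccne1 had 793 and 883 in the controls and 917, 916 and 848 in the knockouts (0.09, standard error 0.077). E2f1, the transcription factor, had 524, 520.2 and 631 in germline wild-type libraries against 627, 513 and 728 in knockouts (0.15), and 1335 and 1336 against 1323, 1364 and 1418 in the inducible table (0.03). It overlapped in both, and without germline replicate 2 it was at 0.28.

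Ccne2, which encodes cyclin E2 and lies at chr4:11118498-11131926 on the plus strand of NCBIM37 (mm9), was the member with the smallest P of the inducible comparison. It had 1055 and 1093 normalized counts in the controls and 1334, 1216 and 1272 in the knockouts. All 3 knockouts exceeded both controls, and the mean was 119% of the control mean. The log2 fold change was 0.24 (standard error 0.065, an interval of 1.07 to 1.32 times the control level), with an unadjusted P of 0.00626 and an adjusted p of 0.740 from limma over all 14081 genes, so it did not pass the adjusted threshold. In the germline table Ccne2 had 1209.7, 921 and 1286 in wild-type libraries against 1060.5, 420 and 1118 in knockouts. The 3 knockouts were below the wild-type mean, but replicates 1 and 3 lay inside the wild-type range. Its germline log2 fold change was -0.51 with a standard error of 0.38 (adjusted p = 0.795 by the same limma test), and -0.05 without replicate 2.

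The position of Ccne2 in the inducible table went together with its base composition. GC content was taken from the longest protein-coding transcript of each gene in GENCODE M1, found for all 46 members. Ccne2 had the lowest GC content of the 46, 36.3%, and the largest log2 fold change, while Pold1, Cdt1, E2f1, Ung and Chaf1a had the 5 highest, from 56.7% to 60.7%, and 4 of these 5 were among the 4 lowest log2 fold changes. Across the 46 genes, which are not independent, Spearman's rho between GC content and log2 fold change was -0.56 in the inducible table, beside -0.32 across the 13070 tested genes with a transcript. In the germline table the values were 0.26 across the members and 0.16 across 12938 genes. When the trend of each library on GC content was subtracted, an alternative chosen after the data were seen, the inducible log2 fold change of Ccne2 became 0.12 (standard error 0.062) with an unadjusted P of 0.0944 from limma. Whether the relation with GC content arose in library preparation was not tested.

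**Figure D4:**
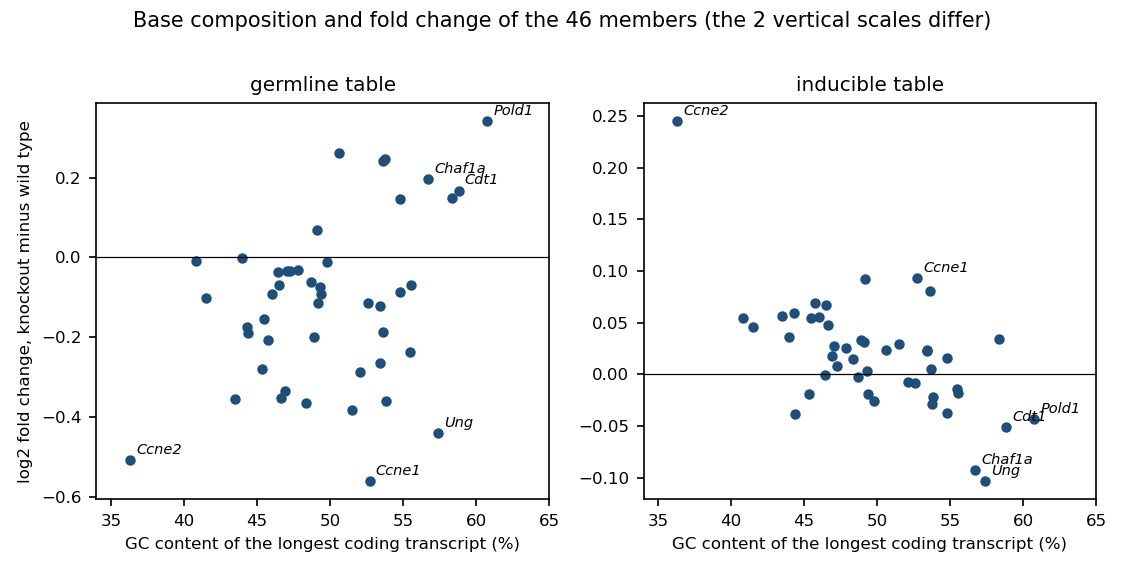
Each point is 1 of the 46 members, with the GC content of its longest coding transcript in percent on the horizontal axis and its log2 fold change, knockout minus wild type, on the vertical axis, whose scale differs between the panels. In the inducible panel Ccne2 stands at 36.3% GC and 0.24, and Ung, Chaf1a, Cdt1 and Pold1 lie at the GC-rich end below 0.

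Of 57 other replication genes, 56 were listed and tested in both tables. In the germline comparison, 30 were higher and 26 lower, with a median of 0.02, and 2 passed the fold and P rules, both higher (limma, adjusted p = 0.779 for each), where 2.07% of all genes passed these rules as higher. Pold4, the small subunit of polymerase delta, had 32.7, 31.9 and 37.4 normalized counts in wild-type libraries against 73.9, 95.4 and 44.2 in knockouts (log2 fold change 0.98, standard error 0.35). Tonsl, a fork repair scaffold, had 217, 248 and 278 against 303, 477 and 367 (0.61, standard error 0.21). For both the knockouts lay above the wild type and were highest in replicate 2, the library in which most members were lowest. In the inducible comparison, 37 were higher and 19 lower, with a median of 0.02, and 0 passed the fold rule. Orc3 and Orc4, subunits of the origin recognition complex, passed an unadjusted P of 0.05 as higher, as 2.98% of all genes did. Orc3 had 2651 and 2676 in the controls and 2915, 2953 and 2815 in the knockouts (0.12, standard error 0.050), and Orc4 had 1106 and 1286 against 1431, 1366 and 1314 (0.20, standard error 0.080). For each the adjusted p from limma was 0.825. Like Ccne2, Orc4 had a low GC content, 36.8%, while Orc3 had 43.0%. Values of these genes after the GC correction are not given.

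Set beside other genes of the cell cycle and the tissue, the members were more reduced in germline knockout replicate 2 than the G2/M list. The 20 G2/M genes had a median of -0.15 there and the 46 members -0.43, while the other replication genes were at -0.14. The 12 neuron genes were at 1.10 and the 10 radial glial genes at 0.21. The radial glial genes went both ways, with 5 of the 10 below the wild-type mean. Their sum in replicate 2 was the lowest of all germline libraries, 41160 against 41717 to 46150 in the others. The difference between these lists was not tested. The hypoxia and glycolysis genes were at 2.21 in replicate 1 and 2.60 in replicate 2, and their sum was lower in replicate 1. In replicate 1 the members were at -0.03 and the G2/M genes at 0.11. In replicate 3 the hypoxia and glycolysis genes were at 0.21 and the members at 0.13. The part of hypoxia and glycolysis in these values was not tested. Mki67, the most abundant G2/M gene on the mean over all libraries, had 16206, 17296 and 19604 normalized counts in wild-type libraries against 19697, 15502 and 17793.5 in knockouts. Over all germline libraries 0 of the 20 G2/M genes passed an unadjusted P of 0.05 (limma), with a median of -0.04. Their inducible median was -0.01, with 0 called.

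**Figure D5:**
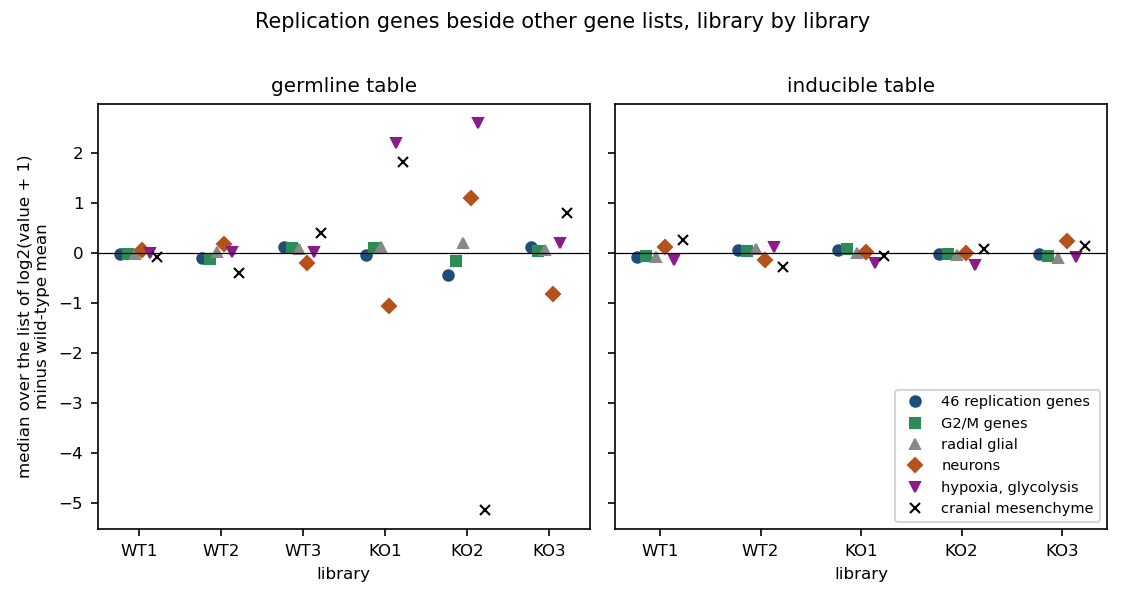
For each library, points give the median over a gene list of log2(normalized count + 1) minus the wild-type mean of the table. In germline knockout replicate 2 the 46 replication genes are at -0.43, neuron genes at 1.10, hypoxia and glycolysis genes at 2.60 and cranial mesenchyme genes at -5.13, whereas replicate 3 and the inducible libraries have replication genes within 0.14 of 0.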

How the data were processed

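RNA of E12.5 cortical cells was sequenced in 11 libraries, grouped by the genotype and replicate number in the labels. Reads were mapped by the authors with TopHat (1.2.0 in the submitters' processing notes) to mm9, and counts per RefSeq gene were scaled by the TMM method of edgeR. What was deposited as signal is a normalized count per gene, not whole, not divided by length and not logged, so no count model was fitted. TMM scaling takes most genes as unchanged. No per-sample column was left unused.

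Values were analysed as log2(normalized count + 1) with limma 3.58.1 in R 4.3.3 (lmFit, eBayes with trend, two-sided), each table alone, for genes with a mean of at least 10, and adjusted by Benjamini-Hochberg over all genes tested. Genes were called at a fold change of 1.5 with an unadjusted P of 0.05, or at an adjusted p of 0.05. As nothing ties a library to an embryo or litter, P values measure the spread between these libraries. The depth of single libraries is not given by the normalized values, and the lowest member mean was 254 normalized counts. Exon lengths and GC content came from GENCODE M1 (NCBIM37) and promoter windows from RefSeq (GRCm38.p6).

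Named with every library's value are Mcm2 to Mcm7, Pcna, Rrm1, Rrm2, Tyms, Tk1, Cdt1, Gmnn, Cdc6, E2f1, Ccne1, Ccne2, members with an unadjusted P of at most 0.05, and in each comparison the 3 members with the largest log2 fold change in each direction. Uhrf1 and Rpa1 were added after their values were seen. Of the other replication genes, those at an unadjusted P of 0.05 are named. The members and lists were chosen with earlier results of these data known. Alternatives were other pseudocounts, filters, scalings, library weights, a replicate block, no trend, each library left out and a GC correction.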

Additional observations from a re-analysis of the deposited data

Results flagged for a closer look

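A range test for an outlying value, gene by gene, needs larger groups than the 2 or 3 libraries here and was not made. Germline knockout replicate 2 stood apart over all genes, as the report describes. For 1 of the 46 members, Ccne2, each knockout library lay on 1 side of the wild-type mean in the germline table and on the other side in the inducible table. The mean deviation of the knockout libraries from the wild-type mean on the log2 scale was -0.51 in the germline and 0.24 in the inducible table. The difference between the tables was not tested, since they were normalized apart. Germline knockout replicates 1 and 3 lay inside the wild-type range, at 94.1% and 99.2% of the wild-type geometric mean. No other member met this criterion: 5 members had each germline knockout below the wild-type mean and 7 above it, and in the inducible comparison 0 were below and 10 above. The shares of all genes that met these criteria are not given, so the counts do not set the members or Ccne2 apart from other genes.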

How the results depend on the processing

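No member passed the adjusted p of 0.05 in either comparison under any setting. With all libraries kept, 0 members passed the fold and P rules in either comparison, the germline median of the members ranged from -0.10 to -0.02 (21 members higher and 25 lower with array weights, 16 and 30 with the GC correction) and the inducible median from 0.004 to 0.03. Leaving out 1 library at a time gave 0 to 6 germline members past the fold and P rules, the 6 without knockout replicate 3, and 0 to 0 inducible members. It gave germline medians of -0.22 to 0.06 and inducible medians of -0.048 to 0.073, where the inducible value without wild-type replicate 1 moved most. The arm with 1 control left was assumed to vary like the other.

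With the replicate number as a block, 0 germline and 0 inducible members passed the fold and P rules, and the medians were -0.10 and 0.03. Same-numbered germline libraries had correlations of -0.12, 0.31 and 0.25 in their deviations from the group means. The unlike-numbered wild-type replicate 3 and knockout replicate 1 had 0.33. Deviations cancel within a group, so these values depend on each other and cannot decide whether the numbers pair the samples. The block changed no call among the members.

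Of single genes, Pold1 reached an unadjusted P of 0.0488 in the germline table with quantile normalization, and Ccne2 lost its P of 0.05 in the inducible table only with the GC correction, at a log2 fold change of 0.12. Without inducible knockout replicate 1, Ung and Chaf1a reached that P too, and without germline wild-type replicate 3 Pole did. Of the named genes' log2 fold changes, 7 of 210 in the germline and 13 of 190 in the inducible table changed sign with all libraries kept, and 12 of 126 and 16 of 95 with a library left out, all at values that passed no threshold. Over all genes, 382 germline genes passed the fold and P rules, but 1044 with array weights and 157 to 1229 with a library left out, and 182 inducible genes did, but 357 without a filter, 72 with a mean of at least 50 and 126 to 322 with a library left out. Genes past the adjusted p numbered 1 in the germline (0 to 11 with a library left out, 2 without trend) and 5 in the inducible table (15 with a pseudocount of 0.5, 13 without a filter, 18 with array weights, 3 without trend). The share of germline calls that were higher was 75.7%, 83.3% with upper-quartile scaling, 53.6% with array weights and 47.8% without knockout replicate 2, where 642 genes were lower and 587 higher. The causes were not tested.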
